A study of Mus musculus with 10 samples.

Results

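The comparison described here sets mouse embryonic fibroblasts (MEFs) given Sox2, Klf4 and the Oct4 mutant L80A (SKO-L80A) against MEFs given Sox2, Klf4 and unmutated Oct4 (SKO). The assay was ATAC-seq, which reads out open chromatin by letting a transposase insert sequencing adapters where DNA is exposed. Every gene of the deposited table was taken, 21965 of 21965, with 2 columns of signal for SKO-L80A and 2 for SKO. Column 1 was set against column 1 and column 2 against column 2 on the log2 scale, and the median of all genes was then subtracted from each pair. A gene was counted only where the higher of both conditions' mean signals reached 6.92 (the middle value over all genes and columns deposited), which left 12635 genes.

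The study has 10 conditions with 1 library each. Besides SKO-L80A and SKO they are SKO-L80A in medium with 50 µg/ml vitamin C (SKO-L80A+Vc), SKO-L80A with Gadd45a (SKO-L80A+Ga), SKO with a hairpin against Brg1 (SKO+shBrg1), and libraries labelled Oct4-L80A, Oct4, Sox2, Klf4 and Flag control. The library labelled Oct4 had a Sox2 signal of 62.9 and 55.2, near the 75.5 and 87.1 of the Sox2 library and against 2.73 and 5.12 in Flag, so its content goes against a label of Oct4 only. All cells were labelled strain ICR, came from embryos of embryonic day 13.5, carried a GFP transgene driven by the Oct4 promoter, and received the factors in pMXs retroviruses packaged in plat-E cells, in medium for mouse embryonic stem cells. Each library came from about 50000 cells of an infected population, so a lower signal from fewer cells with an open site and from a less open site in every cell cannot be told apart. The sources used here do not give the days between infection and harvest. As each condition has a single library, no replicate error is known, the 2 columns of a condition were counted as 1 replicate, and no significance test was possible. The depth behind each value is unknown, since the table holds no read counts.

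Oct4, encoded by Pou5f1, is a POU-family transcription factor that binds DNA through a POU-specific domain and a homeodomain joined by a linker. The L80A change puts an alanine in place of a leucine of that linker. With Sox2 and Klf4, Oct4 can turn fibroblasts into induced pluripotent stem cells, and during this process closed sites of pluripotency and epithelial genes open while sites of the fibroblast programme close.

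Accessibility at genes in SKO-L80A was close to that in SKO. Of 12635 genes, 2 were at least 2-fold higher in SKO-L80A (0.0158%) and 0 were at least 2-fold lower (0%). The 2 genes were Pou5f1 itself and Gm20594, a predicted gene model. With a limit of 1.5-fold in each column pair, the same 2 genes were higher (0.0158%) and 0 were lower (0%). With a limit of 1.5-fold in the mean of both pairs, 3 genes were higher (0.0237%), the third being Nat3, an arylamine N-acetyltransferase. By that limit 1 gene was lower (0.00791%), Cntnap5a, which encodes a neurexin-family adhesion protein of neurons. Between them lay 12488 genes (98.8%) that differed by less than 1.25-fold.

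The 300 bases around the annotated start of 4 genes are printed in lower case, with the 50 bases that begin at the start in capitals. They come from RefSeq on build GRCm38.p6 and are given 5′ to 3′ on the strand of the gene. Gm20594 (chr6:79817781-79818080, plus strand) and Pou5f1 (chr17:35505782-35506081, plus strand) are shown as the genes past 2-fold. Sox2 (chr3:34649745-34650044, plus strand) is shown as the second factor gene that differed, and Thap3 (chr4:151988937-151989236, minus strand) as a gene with less signal in the L80A combinations that was not supplied as a factor.
Gm20594: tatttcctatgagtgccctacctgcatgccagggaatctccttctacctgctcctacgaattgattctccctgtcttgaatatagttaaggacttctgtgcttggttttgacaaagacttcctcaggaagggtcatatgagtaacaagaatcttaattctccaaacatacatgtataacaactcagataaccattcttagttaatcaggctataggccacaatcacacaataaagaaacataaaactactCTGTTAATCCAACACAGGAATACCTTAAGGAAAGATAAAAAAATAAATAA
Pou5f1: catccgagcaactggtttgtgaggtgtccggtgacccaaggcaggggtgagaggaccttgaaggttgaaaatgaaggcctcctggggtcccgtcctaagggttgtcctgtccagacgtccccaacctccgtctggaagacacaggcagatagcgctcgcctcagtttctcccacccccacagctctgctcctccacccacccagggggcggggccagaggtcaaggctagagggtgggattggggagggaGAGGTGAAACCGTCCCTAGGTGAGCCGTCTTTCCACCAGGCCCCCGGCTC
Sox2: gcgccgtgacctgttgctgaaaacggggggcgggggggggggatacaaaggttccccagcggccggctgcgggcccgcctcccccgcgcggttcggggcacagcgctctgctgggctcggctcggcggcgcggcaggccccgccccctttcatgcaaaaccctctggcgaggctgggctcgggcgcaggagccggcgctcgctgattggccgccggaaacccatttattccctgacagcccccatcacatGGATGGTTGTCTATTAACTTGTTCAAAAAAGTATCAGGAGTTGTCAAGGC
Thap3: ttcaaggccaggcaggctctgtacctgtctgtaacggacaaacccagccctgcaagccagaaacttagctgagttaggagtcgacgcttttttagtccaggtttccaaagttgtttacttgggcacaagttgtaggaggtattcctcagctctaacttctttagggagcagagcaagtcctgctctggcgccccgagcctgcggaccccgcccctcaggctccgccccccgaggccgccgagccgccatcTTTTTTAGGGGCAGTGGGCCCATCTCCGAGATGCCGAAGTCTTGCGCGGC
Each window was searched on both strands for the octamer ATGCAAAT, the Sox motif CATTGT, the Klf motif CCACACCC and the AP-1 motif TGANTCA, and had 0 matches to each. In the 27025 mouse promoter windows of the same length, 1.75% held the octamer, 12.8% the Sox motif, 3.57% the Klf motif and 7.93% the AP-1 motif. Among the 8 of the 12 higher genes described below that have a window, Sfxn1 and C9 held the Sox motif, and no other match to these 4 motifs was found in them or in the 9 of the 12 lower genes that have one.

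Pou5f1 (chr17:35506032-35510777) differed most among the supplied factors. Its signal was 15.4 and 27.5 in SKO-L80A, against 10.2 and 9.35 in SKO. Both SKO-L80A columns exceeded both SKO columns, and the centred difference was 0.81 in pair 1 and 1.31 in pair 2, or 2.09-fold. Flag had 0.812 and 1.12, far less than either combination. In the other combinations with the mutant, Pou5f1 had 8.59 and 10.4 in SKO-L80A+Vc and 10.98 and 14.1 in SKO-L80A+Ga, against 8.27 and 6.79 in SKO+shBrg1. The genes that start nearest to Pou5f1 were Tcf19, at a distance of 10792 bp with a difference of -0.12 and 0.05, and Cchcr1, at 11017 bp with -0.11 and 0.06. These 2 genes have nearly identical signals in the table and amount to 1 measurement. The difference was thus seen at Pou5f1 and not at these neighbours. Reads over Pou5f1 can come from the virus insert, from the gene of the cells and from the Oct4 promoter of the GFP transgene, and these sources cannot be told apart in the table.

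Sox2 (chr3:34649995-34652461), the HMG-box partner of Oct4, had less signal with the mutant. It had 38.5 and 51.8 in SKO-L80A, against 72.2 and 59.8 in SKO. Both SKO-L80A columns lay below both SKO columns, with centred differences of -0.69 and -0.43. Uncentred, the other mutant combinations had 21.998 and 22.5 in SKO-L80A+Vc and 28.6 and 28.0 in SKO-L80A+Ga, against 61.5 and 43.6 in SKO+shBrg1. Their centred means against SKO+shBrg1 were -0.63 and -0.52, near the -0.56 of SKO-L80A against SKO. Flag had 2.73 and 5.12, far less than each of these combinations. Klf4 (chr4:55527137-55532475), a Krüppel-like zinc finger factor, had 62.6 and 83.5 in SKO-L80A, against 78.5 and 66.6 in SKO. Its columns overlapped, and its centred differences were -0.11 and 0.10. The signal over the 3 supplied genes therefore differed in its proportions between both libraries, with more over Pou5f1 and less over Sox2 in SKO-L80A. What part this has in the values of other genes was not tested.

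**Figure D1:**
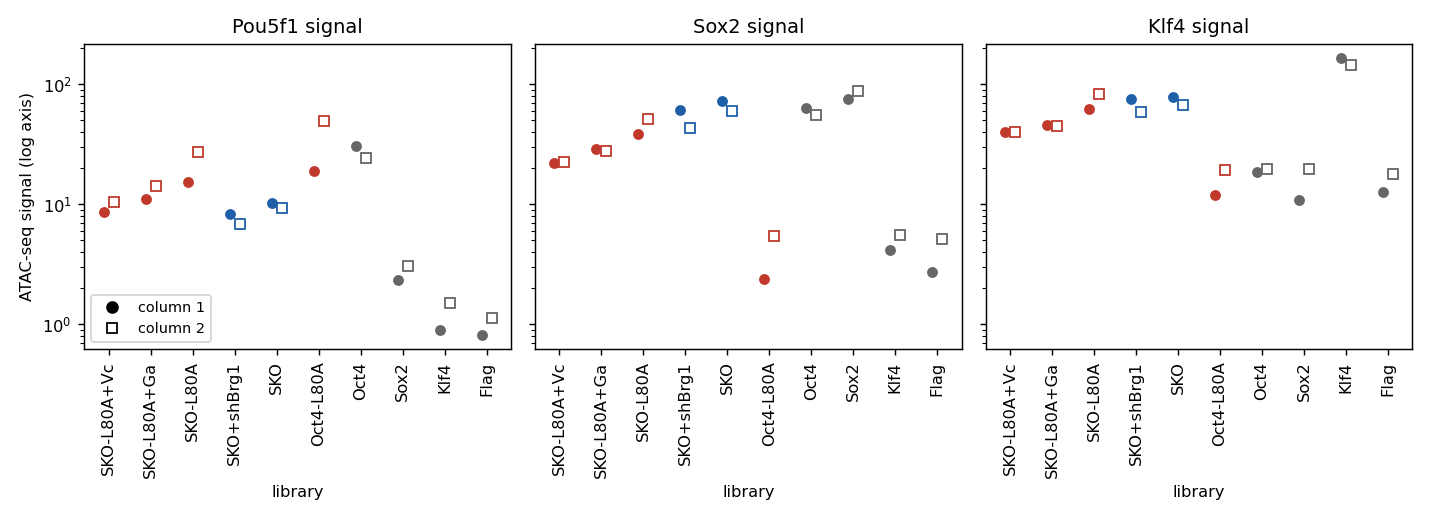
ATAC-seq signal over Pou5f1, Sox2 and Klf4 in the 10 libraries (log axis), with filled circles for column 1 and open squares for column 2. SKO-L80A has 15.4 and 27.5 over Pou5f1 against 10.2 and 9.35 in SKO, and the 3 combinations with L80A lie lower over Sox2 than SKO.

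Gm20594 (chr6:79818031-79818364) had the greatest fold of all counted genes, 5.06-fold. Its signal was 5.79 and 36.8 in SKO-L80A, against 1.82 and 4.20 in SKO. SKO-L80A+Vc had 3.37 and 21.2, SKO-L80A+Ga had 3.27 and 28.5, and SKO+shBrg1, which carries unmutated Oct4, had 5.59 and 25.1. Among these 5 combinations, SKO had the lowest column 2. The libraries outside the combinations were low as well, with 1.84 and 4.56 in the library labelled Oct4, 3.55 and 6.21 in Oct4-L80A, 2.33 and 0.959 in Sox2, 5.38 and 5.72 in Klf4 and 2.42 and 8.75 in Flag. Against SKO+shBrg1 the centred difference of Gm20594 was 0.02 and 0.21 in SKO-L80A+Vc and -0.29 and 0.41 in SKO-L80A+Ga.

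Across genes, the 2 columns of 1 condition differed more than columns of the same number did between conditions. Over the 12635 genes, the SD of the centred difference between SKO-L80A and SKO was 0.152 in pair 1 and 0.155 in pair 2, and 0.113 for their mean. Column 2 minus column 1 had an SD of 0.266 within SKO-L80A and 0.232 within SKO. With the numbers crossed, the SD between conditions was as large, 0.265 for SKO-L80A column 1 minus SKO column 2 and 0.242 for SKO-L80A column 2 minus SKO column 1. These column differences were shared, since column 2 minus column 1 in SKO-L80A correlated with the same quantity in SKO at r = 0.659 across genes, which are not independent replicates. The condition difference was not shared in that way. Pair 1 and pair 2 correlated at r = 0.0810 (Spearman's rho 0.0406) over the same genes. In both pairs at once, 32 genes were at least 1.25-fold higher and 22 at least 1.25-fold lower in SKO-L80A.

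**Figure D2:**
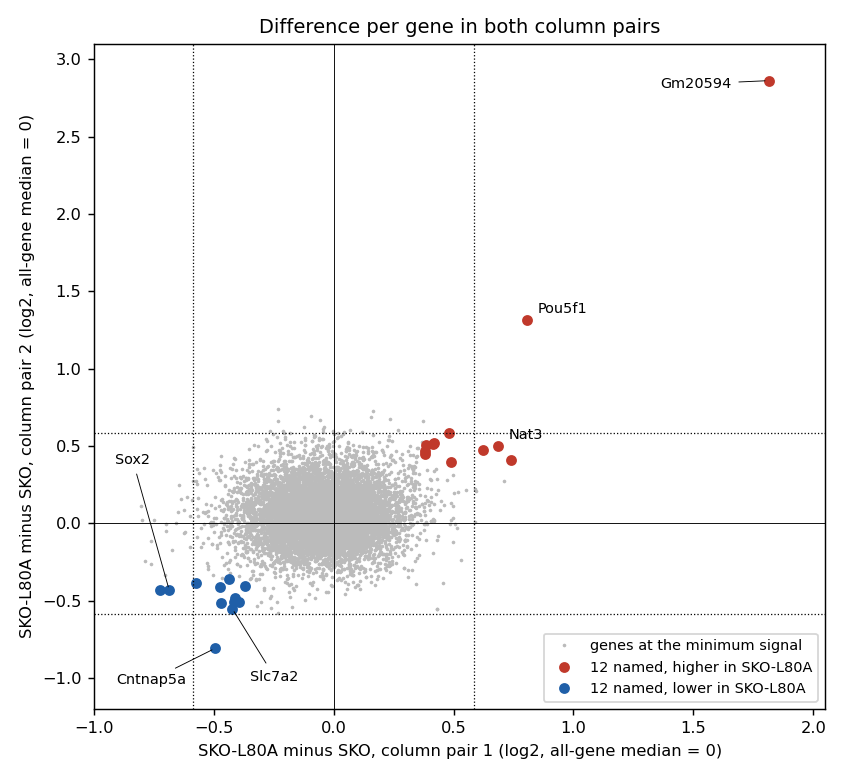
Centred log2 difference of SKO-L80A from SKO for each of the 12635 counted genes, column pair 1 across and column pair 2 upwards, with dotted lines at 1.5-fold. Gm20594 and Pou5f1 lie past the lines in both pairs at the upper right, and the 12 named lower genes in blue are not far from the grey cloud.

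The levels ranked SKO-L80A among the libraries most like SKO. Of the 45 possible pairs of libraries, the pair of SKO-L80A and SKO had the third smallest SD of the mean difference, 0.113, after SKO+shBrg1 against SKO with 0.108 and SKO-L80A against SKO+shBrg1 with 0.112. SKO-L80A against SKO-L80A+Ga followed with 0.116, and SKO-L80A against Flag had 0.345. Of these, the pairs that share a library are not independent. Replacing Oct4 by L80A thus gave a spread near that between SKO libraries that differ in the Brg1 hairpin.

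Before centring, all genes together moved in opposite directions in the pairs. The median of all 21965 genes was -0.22 in pair 1 and 0.23 in pair 2 for SKO-L80A minus SKO. The totals of the columns moved likewise, 280334 and 319763 in SKO-L80A, against 334696 and 266029 in SKO. The shift was absent among genes with almost no signal. Among the 5492 genes with the least signal in Flag, the uncentred median difference was 0.01 in pair 1 and -0.01 in pair 2, with median signals of 0.183 and 0.163 in SKO-L80A, against 0.182 and 0.167 in SKO. Among the quartile with the most Flag signal it was -0.25 and 0.26, with median signals of 29.0 and 32.4 in SKO-L80A, against 34.6 and 27.0 in SKO. Open genes therefore carried a column effect of opposite sign in both conditions, and the mean of both pairs for that quartile was 0.00019 before centring. The quartile with the least Flag signal lies near the pseudocount of 0.138, and only 11 of its 5492 genes reached the minimum signal.

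**Figure D3:**
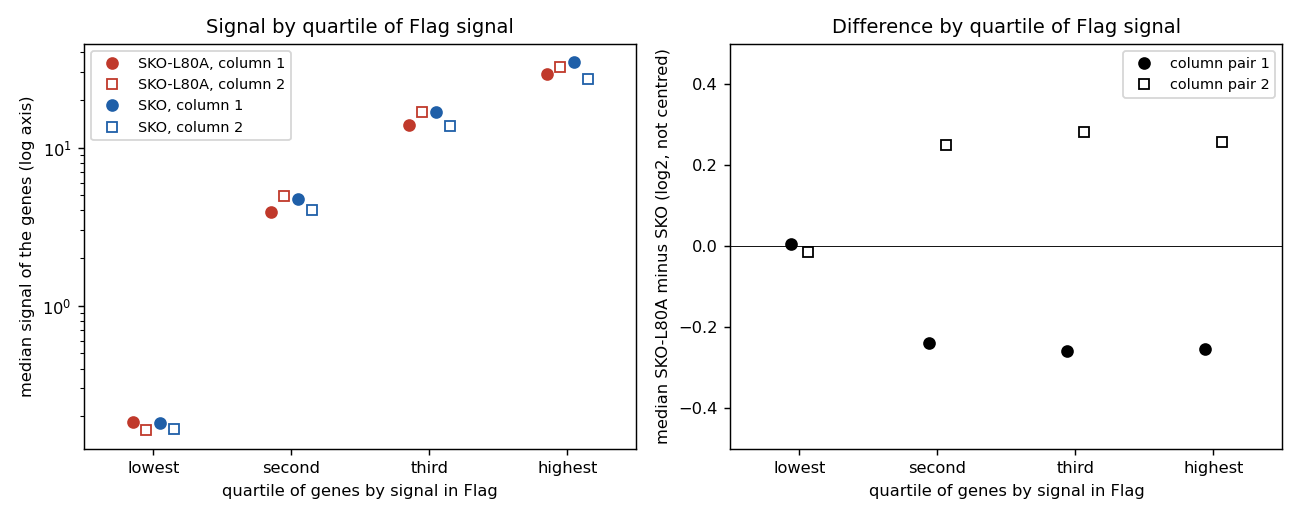
Left, median signal of genes in each quartile of Flag signal for the columns of SKO-L80A and SKO (log axis), and right, the uncentred median log2 difference of SKO-L80A from SKO in both column pairs. The difference is 0.01 and -0.01 in the lowest quartile, and -0.25 and 0.26 in the highest.

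Genes that gain accessibility with the 3 factors and the Brg1 hairpin were examined with a set that uses neither library compared. It holds the 278 genes at least 2-fold higher in SKO+shBrg1 than in Flag. Genes that open only without the hairpin are left out of it. Of the 278 genes, 266 reached the minimum signal in SKO-L80A or SKO. These 266 had a median signal of 12.1 in SKO-L80A and 12.1 in SKO, and 3.04 in Flag, which chose the set. Their median centred difference was 0.01, from -0.01 in pair 1 and 0.04 in pair 2. Above 0 lay 139 of them and below 0 lay 127. Of all 278 genes, 259 (93.2%) differed by less than 1.25-fold between SKO-L80A and SKO, beside 98.8% of all counted genes. The first share includes genes under the minimum signal, and the second does not. The SD of the mean difference was 0.176 over the 266 genes and 0.113 over all counted genes. A subset of 180 genes was not called at least 2-fold above Flag in the libraries labelled Sox2, Klf4, Oct4 or Oct4-L80A. The library labelled Oct4 also carries Sox2 signal. A call needed the minimum signal, so genes raised past 2-fold at a lower signal could stay in the subset. Of the 180 genes, 169 were counted, with a median difference of -0.01, 80 above 0 and 89 below. The median signal of the counted genes opened in SKO+shBrg1 was thus nearly the same with the mutant as with unmutated Oct4. Single genes of the set spread more than counted genes as a whole. The set holds Pou5f1, and its signal was lower than that of all counted genes, which had a median of 19.7 in SKO. Over all genes, the SD was 0.228 in the second lowest quartile of Flag signal and 0.081 in the highest. What part these have in the spread of the set was not tested.

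**Figure D4:**
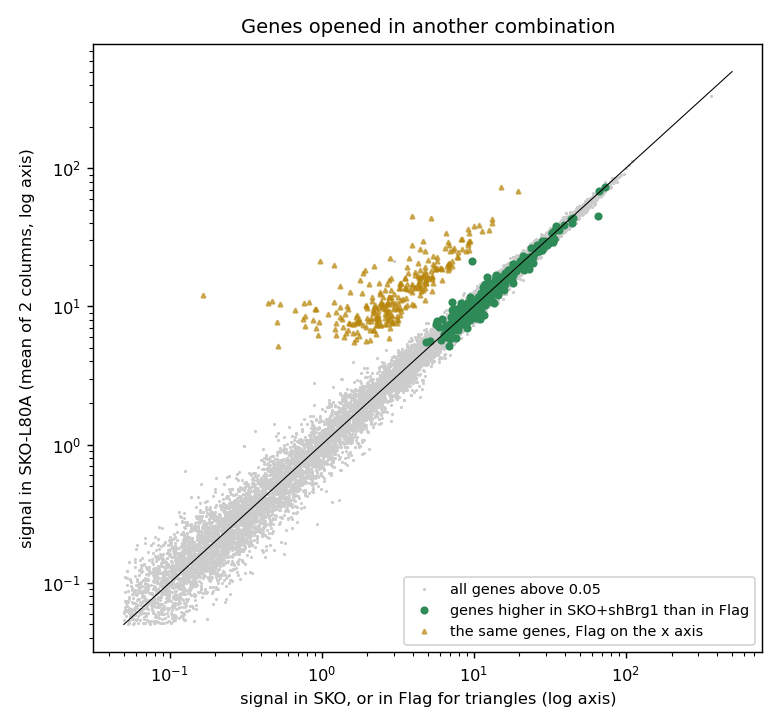
Signal in SKO-L80A against signal in SKO (both log axes, mean of 2 columns) for all genes in grey and for the 278 genes higher in SKO+shBrg1 than in Flag in green, and, as triangles, the same 278 genes with Flag on the horizontal axis. The green points follow the line of equality, with medians of 12.1 in both conditions over the 266 genes that reached the minimum signal.

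Some named genes of that group are given here. The group also holds 2 genes at least 1.5-fold higher in SKO-L80A, 1 of them past 2-fold, which are described elsewhere. Gdf3, a TGF-beta family ligand next to Nanog, had 8.39 and 7.94 in SKO-L80A, against 10.5 and 6.61 in SKO and 0.933 and 0.585 in Flag, and its columns overlapped. Cldn3, a tight junction claudin, had 12.2 and 12.8 in SKO-L80A, against 13.6 and 8.68 in SKO. Crtam, an adhesion molecule of T cells, had 12.7 and 9.37 in SKO-L80A, against 15.8 and 9.30 in SKO. These differed by 0.20 or less in size from the median of all genes. Cyp3a13, a cytochrome P450, had 9.27 and 12.1 in SKO-L80A, against 8.14 and 8.45 in SKO, so that both mutant columns were higher (centred 0.40 and 0.28). Ugt1a6a, a glucuronosyltransferase, had 11.2 and 9.92 in SKO-L80A, against 16.5 and 10.7 in SKO (centred -0.34 and -0.34). The noncoding transcript gene E330017A01Rik had 12.1 and 12.1 in SKO-L80A, against 17.3 and 11.7 in SKO. None of these 6 genes reached 1.5-fold in the mean of the pairs.

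In the pluripotency network, the set of genes that sustain stem cell identity, Pou5f1 itself was the only counted gene past 1.5-fold in the mean of both pairs. Of its 44 members 16 reached the minimum signal, with a median centred difference of -0.05 against 0.0012 for all counted genes. Below 0 lay 13 of the 16 and above 0 lay 3, and in both columns 6 were below and 1 above, beside 2987 below and 3095 above among all genes. Tet1, which oxidises methylcytosine, had 16.7 and 19.5 in SKO-L80A, against 24.5 and 19.99 in SKO, with centred differences of -0.33 and -0.26. Both its mutant columns lay below both SKO columns. Lin28b, an inhibitor of let-7 maturation, had 5.77 and 9.92 in SKO-L80A, against 8.18 and 8.84 in SKO. Mycn, a Myc-family factor, had a difference of 0.11 and Klf5, a relative of Klf4, 0.01. Several late pluripotency genes did not reach the minimum. Nanog had 0.0918 and 0.483 in SKO-L80A, against 0.665 and 0.615 in SKO, and Flag had 0.562 and 0.793. Its centred differences were -1.59 and -0.50, at signals far under the minimum. Esrrb, an orphan nuclear receptor, had 3.25 and 4.28 in SKO-L80A, against 3.17 and 3.09 in SKO. Sall4 and Dppa3 had at most 2.78 and 0.909 in these 4 columns. None of these 4 late genes exceeded 4.28 in any column of SKO-L80A or SKO.

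The counted genes of the fibroblast programme each differed by less than 1.25-fold in the mean of both pairs, more of them below 0 than above. Of 54 measured members 46 were counted, with a median of -0.03, 28 below 0 and 18 above. In both columns 20 of the 46 were below and 8 above, beside 2987 below and 3095 above among all 12635 genes, and 0 passed 1.5-fold. The list's median was -0.05 in pair 1 and -0.06 in pair 2, where all counted genes had -0.04 and 0.04. Pdgfrb, a growth factor receptor of mesenchyme, had 13.4 and 15.4 in SKO-L80A, against 17.1 and 16.1 in SKO, the lowest centred difference of the list at -0.21. Lox, which cross-links collagen, had the highest, 0.24, with 17.5 and 21.2 in SKO-L80A, against 17.1 and 15.4 in SKO. Among markers of the labelled cell type, Col1a1, a fibrillar collagen, had 25.02 and 21.4 in SKO-L80A, against 28.3 and 20.4 in SKO, and Twist1, a mesenchymal regulator, had 15.7 and 21.8 in SKO-L80A, against 18.1 and 17.7 in SKO. Prrx1, a limb mesenchyme homeobox gene, had 6.55 and 6.44 in SKO-L80A, against 8.34 and 5.51 in SKO, and Thy1 stayed under the minimum signal. Col1a1 and Twist1 were thus above the minimum signal in both conditions, while both Prrx1 columns of SKO-L80A were under it.

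Epithelial genes, which gain accessibility as fibroblasts take on epithelial character, were also close to SKO. In the epithelial and mesenchymal-to-epithelial transition list 13 of 39 genes were counted, with a median of 0.01, 8 above 0 and 5 below. Cldn6, a tight junction protein, had 7.53 and 10.7 in SKO-L80A, against 8.79 and 6.59 in SKO, the highest difference at 0.23. Krt8, a keratin of simple epithelia, had the lowest at -0.16, with 6.75 and 7.86 in SKO-L80A, against 9.11 and 7.26 in SKO. Dsp, which anchors keratin at desmosomes, differed by 0.19. Cdh1 and Epcam, adhesion molecules of epithelia, were under the minimum in both conditions, with 2.08 and 2.80 for Cdh1 in SKO-L80A, against 1.56 and 2.43 in SKO. The stratified epithelium list had 10 of 30 genes counted, with a median of 0.02, from -0.25 for Tgm1, a transglutaminase of the cornified envelope, to 0.38 for Ly6d, a surface protein of keratinocytes. Ly6d had 8.94 and 7.21 in SKO-L80A, against 7.07 and 5.28 in SKO.

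Genes for the chromatin machinery had medians near that of all genes. The 34 counted heterochromatin genes had a median of 0.00051, the 26 of Brg1 complexes 0.0026, the 26 of remodellers outside Brg1 0.0090 and the 20 of DNA demethylation and repair -0.02. None of these 4 lists had a counted member past 1.5-fold. Chd7, a remodeller of the CHD family, was the most extreme, with 8.94 and 15.1 in SKO-L80A, against 8.04 and 8.93 in SKO, and centred differences of 0.37 and 0.53. The lower SKO-L80A column, 8.94, nearly equalled the higher SKO column, 8.93. Atrx, a heterochromatin remodeller, had 9.20 and 9.75 in SKO-L80A, against 7.82 and 7.49 in SKO. Cbx1, which encodes an HP1 protein, had the lowest value of the heterochromatin list at -0.18. Smarca4, which encodes Brg1, differed by 0.09 and Gadd45a, a stress-response gene, by -0.09.

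Genes of other cell types and general controls gave the same picture. The AP-1 and TEAD factors, with 23 of 25 counted, had a median of 0.0007 and a range from -0.13 for Jund to 0.13 for Tead3. The neural list had 19 of 30 counted and a median of -0.0023, and the interferon and stress list 19 of 25 and -0.00054. Muscle, cartilage and bone genes, 7 of 24 counted, had 0.04, and endoderm and trophectoderm genes, 6 of 22 counted, had 0.0046. Only 4 of 22 blood and endothelial genes were counted, with Gata2, a blood progenitor factor, at 0.32 and Vwf, an endothelial protein, at -0.23. The 30 housekeeping genes had a median of -0.00092, with 15 above 0 and 15 below. In none of these 7 lists did a counted gene pass 1.5-fold.

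The 12 genes with the most even increase in both pairs were ranked by the smaller of their 2 centred differences. After Gm20594 and Pou5f1 came Nat3 (chr8:67523854-67548627), with 10.99 and 10.7 in SKO-L80A, against 7.91 and 6.38 in SKO. Both mutant columns were higher, and Flag had 0.667 and 0.975, well under both combinations. Sfxn1, a mitochondrial serine carrier, had 4.47 and 10.6 in SKO-L80A, against 3.71 and 5.99 in SKO. C9, a pore-forming complement protein, had 14.6 and 10.3 in SKO-L80A, against 10.99 and 6.30 in SKO. For both of these genes the columns of the conditions overlapped, while SKO-L80A was higher within each pair before centring as well. Aqp3, a water and glycerol channel of epithelia, had 7.45 and 8.36 in SKO-L80A, against 6.49 and 4.94 in SKO, and its columns did not overlap. Bbox1, which makes carnitine, had 7.20 and 8.33 in SKO-L80A, against 6.42 and 5.10 in SKO. The others were Pianp (mean 0.47), Samd12 (0.57), Mpg, a DNA glycosylase of base excision repair (0.44), BC017643 (0.45) and Hrasls5, a phospholipid acyltransferase (0.42). The rank after the 12 was held by Star, a cholesterol carrier of steroid-making cells, with a mean of 0.42.

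The 12 genes with the most even decrease were led by Cntnap5a (chr1:115684737-116587323), with 3.60 and 5.33 in SKO-L80A, against 5.99 and 8.05 in SKO, and a mean of -0.65. Both of its mutant columns lay below both SKO columns. Slc7a2 (chr8:40862341-40922070), a carrier of arginine and lysine, had 12.6 and 13.1 in SKO-L80A, against 19.7 and 16.4 in SKO, again with no overlap. Hook1 (chr4:95967181-96025412), an adaptor between cargo and microtubules, had 6.34 and 10.5 in SKO-L80A, against 11.1 and 11.8 in SKO. Thap3 (chr4:151982638-151988986), a THAP zinc finger protein, had 5.50 and 5.24 in SKO-L80A, against 8.49 and 6.40 in SKO. Rbm41, an RNA-binding protein, had a mean of -0.49, Zdhhc15, a palmitoyltransferase, -0.58, Plscr2, a phospholipid scramblase, -0.46, and Cenpv, a centromere protein, -0.44. Dcaf12l1 had -0.45, Slc17a6, a vesicular glutamate transporter, -0.39, and Ppil1, a spliceosomal peptidyl-prolyl isomerase, -0.40. Sox2 was the other member. Cntnap5b, a relative of Cntnap5a, came next after the 12 with -0.41.

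Whether these differences recur was looked at in libraries that did not choose the genes. SKO-L80A+Vc and SKO-L80A+Ga were each set against SKO+shBrg1. These 2 comparisons share SKO+shBrg1, and they also hold the effects of vitamin C, Gadd45a and the hairpin, which cannot be told apart from that of the mutant. Across all counted genes, the differences correlated with those of SKO-L80A against SKO at r = 0.0537 for SKO-L80A+Vc and 0.1005 for SKO-L80A+Ga. In these comparisons most genes lie below 0, 75.3% of the 12635 in SKO-L80A+Vc and 72.7% in SKO-L80A+Ga. Of the 12 lower genes, 10 were below 0 in SKO-L80A+Vc and 10 in SKO-L80A+Ga, which is near those shares, with medians of -0.33 and -0.25 against -0.09 and -0.07 for all counted genes. In SKO-L80A+Vc 77 genes (0.603%) were at least 1.5-fold lower than in SKO+shBrg1, and 2 of the 12, Rbm41 and Sox2, were among them. Cntnap5a, with 1.71 and 1.98 in SKO-L80A+Vc against 4.29 and 5.93 in SKO+shBrg1, was under the minimum signal there. In SKO-L80A+Ga 17 genes (0.133%) were, and 0 of the 12. Of the 12 higher genes, 6 were above 0 in SKO-L80A+Vc and 8 in SKO-L80A+Ga, where 24.7% and 27.3% of all counted genes were. At least 1.5-fold higher were 12 genes (0.094%) in SKO-L80A+Vc, 2 of them among the 12 (Pou5f1 and Nat3), and 1 gene (0.00783%) in SKO-L80A+Ga, Pou5f1.

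**Figure D5:**
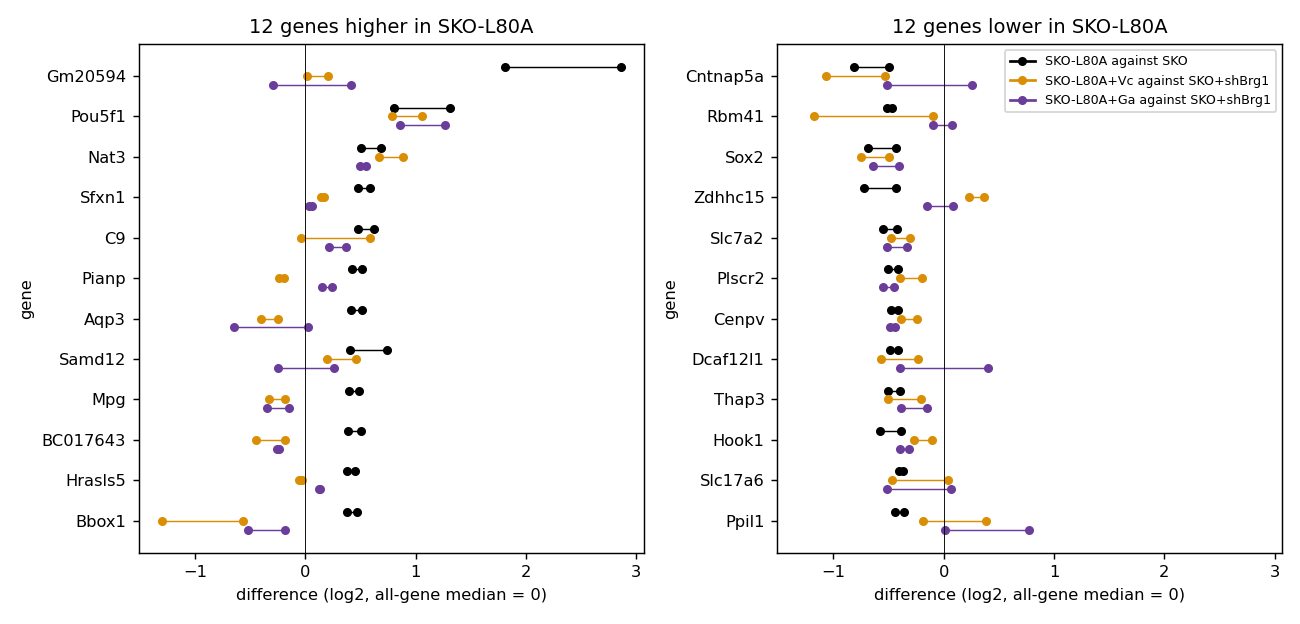
Centred log2 differences of the 12 higher and the 12 lower genes in SKO-L80A against SKO (black), SKO-L80A+Vc against SKO+shBrg1 (orange) and SKO-L80A+Ga against SKO+shBrg1 (purple), with 1 point per column pair. Pou5f1, Nat3 and Sfxn1 lie above 0, and Sox2, Slc7a2, Plscr2, Cenpv, Thap3 and Hook1 below 0, in every pair drawn. In the 4 pairs against SKO+shBrg1, 2.64% of all counted genes lie above 0 and 29.1% below 0 throughout.

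Gene by gene, a few of the named genes had the same order in all combinations once each comparison was centred. Nat3 had 7.63 and 8.27 in SKO-L80A+Vc and 8.49 and 7.33 in SKO-L80A+Ga, against 7.97 and 6.08 in SKO+shBrg1, so that its uncentred columns overlapped. Slc7a2 had 9.42 and 8.53 in SKO-L80A+Vc and 9.84 and 10.98 in SKO-L80A+Ga, against 19.4 and 16.3 in SKO+shBrg1. Hook1 had 5.81 and 8.40 in SKO-L80A+Vc and 6.43 and 8.48 in SKO-L80A+Ga, against 11.7 and 12.4 in SKO+shBrg1. Thap3 had 3.27 and 3.52 in SKO-L80A+Vc and 5.09 and 3.60 in SKO-L80A+Ga, against 7.84 and 5.61 in SKO+shBrg1. Centred means in SKO-L80A+Vc and SKO-L80A+Ga were -0.39 and -0.42 for Slc7a2, -0.19 and -0.35 for Hook1, and -0.35 and -0.27 for Thap3. Aqp3, Bbox1, Mpg and BC017643 had means below 0 in both comparisons, with 5.21 and 3.66 for Aqp3 in SKO-L80A+Vc and 7.66 and 3.58 in SKO-L80A+Ga, against 10.4 and 6.71 in SKO+shBrg1. After each column was centred on its median over the counted genes, the 6 columns of the 3 mutant combinations all lay above the 4 columns of SKO and SKO+shBrg1 for 49 genes (0.388%) and all below for 36 genes (0.285%). Of the 24 named genes, Pou5f1 and Nat3 lay all above and Slc7a2 all below, and 4 of the 10 columns had served to choose them. The widest gaps on the log2 scale were 0.40 at Nat3, 0.27 at Nwd1, which lay below, 0.22 at Pou5f1, and 0.21 at Lama4, a laminin chain, which lay above.

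Genes that respond to a single factor were followed in the same way, without Pou5f1, Sox2 and Klf4. The 13 counted genes that Sox2 alone raised above Flag had a median of -0.12 in SKO-L80A against SKO. In the mean of both pairs 12 of 13 were below 0, and the median was -0.195 in pair 1 and -0.026 in pair 2. In SKO-L80A+Ga against SKO+shBrg1 the median was -0.13 (-0.05 with the trend on mean signal removed) and in SKO-L80A+Vc 0.0033 (0.10). The Sox2 signal was lower in each of these comparisons, as given above, and its part in these values was not tested. The 137 genes raised by Klf4 alone had a median of 0.08 in SKO-L80A against SKO, with 101 above 0, while their medians against SKO+shBrg1 were -0.06 in SKO-L80A+Vc and -0.0067 in SKO-L80A+Ga. All counted genes had -0.08 and -0.07 in those 2 comparisons, and with the trend on mean signal removed the Klf4-raised genes had 0.03 and 0.07, above 0 in all 3 comparisons. The 29 genes lowered by Klf4 had -0.13, with 26 of 29 below 0, and -0.12 and -0.10 in those 2 comparisons, or -0.05 and -0.02 with the trend removed. The 37 genes raised in the library labelled Oct4, which also carries a Sox2 signal its label does not name, had -0.02. Of all 12635 counted genes, 6393 lay above 0 and 6242 below in SKO-L80A against SKO.

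Medians by chromosome and by gene size lay near that of all counted genes. Chromosome medians of the mean difference ran from -0.013 on chromosome 6 to 0.011 on chromosome 18, with -0.0043 on X. X holds 322 of the 12635 counted genes, among them the lower genes Rbm41, Zdhhc15 and Dcaf12l1. A median does not show a few such genes. The quartile of shortest genes had a median of 0.0064 and that of longest genes -0.0059.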

How the data were processed

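The authors deposited 1 table of ATAC-seq signal, a coverage density per Ensembl gene, with 21965 genes and 20 columns for 10 libraries. The submitters' processing notes name build mm10 and, in alphabetical order, bedtools 2.25.0, Bowtie2 2.2.5, cutadapt 1.13, deepTools, DESeq2 1.22.2, MACS2 2.1.0, Picard, SAMtools 1.3.1 and Trimmomatic 0.35. The sources used here do not give the role of each tool, the window over which signal was taken, its scaling, or how a condition's 2 columns relate.

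From the deposited signal, log2(signal + 0.138) was computed, the pseudocount being the 10th percentile of values above 0. Differences were taken per column pair, centred on the all-gene median and averaged. Folds are on this scale and understate changes of low genes. Genes counted, called and named follow the size rules given with the results, and 12 genes per direction were named by the smaller of both differences, beside a fixed group and up to 3 extremes each way per list. The members and lists were chosen with earlier results of these data known. RefSeq on GRCm38.p6 held 20788 of the symbols, and 16445 had a promoter entry. A check of promoter CpG content was void, since 77.8% of counted genes had an entry. Calculations used Python 3.11.15, numpy 2.4.6, pandas 2.3.3 and statsmodels 0.14.6, and were tested on simulated data. The 10 alternatives were 2 other pseudocounts, no minimum signal, no centring, scaling to column totals, quantile normalisation, subtraction of a lowess curve (fraction 0.3) on mean signal, each column pair alone and crossed columns. Removing the 3 factor genes from gene sets and the trend from followed genes were chosen after the data were seen.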

Additional observations from a re-analysis of the deposited data

How the results depend on the processing

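No paired analysis was possible because the labels give 1 library per condition and number no replicates. The deposited columns are numbered 1 and 2, and the reported differences already pair them by number. With a pseudocount 4 times larger or smaller, no centring, total scaling, quantile normalisation or trend removal, the counts were the same as those reported, 2 genes higher and 0 lower at 2-fold and 2 higher and 0 lower at 1.5-fold in both pairs. Without a minimum signal, 14 genes were higher and 10 lower at 2-fold, and 48 higher and 57 lower at 1.5-fold in both pairs. Pou5f1 and Gm20594 were among them, and the median level of the 14 genes higher at 2-fold was 1.33. Pair 1 alone gave 1 gene higher at 2-fold, 9 higher at 1.5-fold and 25 lower at 1.5-fold. Pair 2 alone gave 23 higher and 1 lower at 1.5-fold. Crossed columns left 1 gene higher at 1.5-fold in both. The causes were not tested beyond the construction of each alternative. The median over the genes higher in SKO+shBrg1 than in Flag stayed between -0.01 and 0.04. Of the genes chosen by name, the sign of Klf4 changed under 4 alternatives, and that of Gdf3, Gadd45a and Col1a1 under 1 each. With trend removal, the medians of the 12 lower genes in the comparisons with SKO+shBrg1 were -0.26 for SKO-L80A+Vc and -0.19 for SKO-L80A+Ga. Depth is unknown, and 1 library per condition leaves the spread between cultures unmeasured.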

Other observations

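Genes whose starts lie close together share their values in this table. Of 490 pairs of neighbouring genes with starts less than 250 bp apart, 87.3% differed by no more than 0.01 on the log2 scale in column 2 of SKO, as did 84.7% of 111 pairs at 500 to 1000 bp and 58.1% of 105 pairs at 1000 to 2000 bp. At 2000 to 4000 bp the share was 21.2% of 241 pairs, and at 4000 to 10000 bp 5.18% of 1003 pairs. Tgs1 and Tmem68, which start head to head on chromosome 4, both had 23.1 and 26.7 in SKO-L80A, against 23.9 and 20.1 in SKO. Such neighbours are counted as separate genes in the counts above, although their values are not independent.

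Genes outside the named groups also had columns of the 3 mutant combinations that did not overlap SKO and SKO+shBrg1 after centring; they were chosen after their values were seen. Nwd1 had 6.92 and 7.80 in SKO-L80A, against 11.7 and 8.09 in SKO, and 2.76 and 3.98 in Flag. Tmem40 had 9.54 and 11.1 in SKO-L80A, against 14.0 and 10.6 in SKO. Lama4, a laminin chain of basement membranes, had 7.79 and 9.03 in SKO-L80A, against 6.73 and 6.01 in SKO. Scx, a tendon and ligament transcription factor, had 7.67 and 8.73 in SKO-L80A, against 12.2 and 8.52 in SKO. Igf1r, a growth factor receptor, had 25.6 and 27.7 in SKO-L80A, against 32.4 and 26.9 in SKO. Without the centring, the columns of Tmem40, Scx and Igf1r overlap between SKO-L80A and SKO.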
